A study of Mus musculus with 20 samples.

Results

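The solute carriers (gene symbols Slc) are the membrane proteins that move ions, neurotransmitters, amino acids, sugars, metals and metabolites across the plasma membrane and across the membranes of synaptic vesicles, mitochondria, endosomes and the Golgi. In the brain they clear glutamate and GABA from the synapse, load both into vesicles, extrude calcium and chloride, and feed neurons and glia. N6-methyladenosine (m6A) is a methyl mark that a nuclear writer complex places on adenosines of messenger RNA, most densely near the stop codon and in the 3′ untranslated region, where reader proteins of the YTH family bind it. The members described here are all genes of the listed sites whose symbol starts with Slc and a number, apart from Slc1a2, which this selection leaves out. There were 75 such genes of 29 families among 3731 genes with a listed site, and they held 578 of 25978 edited positions, or 2.22% (exact binomial 95% interval 2.05 to 2.41).

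The data came from mice carrying a tamoxifen-inducible transgene for APOBEC1-YTH, a cytidine deaminase joined to an m6A-binding YTH domain, so that a C-to-U change in the RNA marks a nearby m6A. All mice were injected with tamoxifen at 20 mg/kg, a dose each 24 h over 5 days, and tissue was collected 7 days later. The APOBEC1-YTH group had 4 libraries each of cerebellum, hippocampus and cortex, from the same 4 animal numbers. The APOBEC1-YTHmut group, the background control for site calling, had 3 libraries of cerebellum, 2 of hippocampus and 3 of cortex, from 3 animal numbers. The promoter that drives the transgene, the strain, the age and the sex were not stated in the labels.

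Each region is represented by 1 deposited list of sites with 1 editing level per site, read here as the percentage of edited reads over the APOBEC1-YTH libraries combined. The lists hold 11391 sites in cerebellum, 13461 in hippocampus and 17878 in cortex, and no value in them is below 1%. Read depth, levels per animal and levels in APOBEC1-YTHmut mice are not in these lists. No replicate error or test can therefore be given for any difference below, and the intervals cover only the counting of sites or genes. For a gene with no listed site in a region, a missing mark and too little RNA to call one cannot be told apart. In bulk tissue, neither can fewer cells of a type and less RNA per cell. The region labels were set against marker symbols. Of 8 markers of Purkinje and granule cells, 5 had a site in cerebellum, 1 in hippocampus and 3 in cortex, with 94, 3 and 6 sites in that order. Of 8 markers of forebrain excitatory neurons, 1 had sites in cerebellum, 4 in hippocampus and 6 in cortex, with 25, 32 and 42 sites, so these markers are not absent from the cerebellar list. Of 6 hippocampal markers, 1, 4 and 1 had a site, with 1, 40 and 9 sites. All 4 astrocyte markers had sites in every region, with 60, 37 and 30. Of 6 markers of choroid plexus, 2 had sites in cerebellum (Ttr and Kl, with 9 sites in all) and none had a site in hippocampus or cortex; Folr1, Clic6, Aqp1 and Otx2 had no site in any list.

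In cerebellum 53 of the 75 members had a site (70.7%, against 59.7% of the 3731 genes), in hippocampus 51 (68%, against 68.3%) and in cortex 58 (77.3%, against 84.8%). Members held 280 sites in cerebellum, or 2.46% of that list (95% interval 2.18 to 2.76). They held 305 sites in hippocampus, or 2.27% (2.02 to 2.53), and 379 in cortex, or 2.12% (1.91 to 2.34). The 3 intervals overlap. A site in every region was found in 37 members (49.3%, against 43.1% of all genes). Sites in 1 region only were found in 25 members, 20 of them with a lone site: 11 in cerebellum (14.7%, against 7.75%), 3 in hippocampus (4%, against 5.23%) and 11 in cortex (14.7%, against 17.4%). Sites were unevenly spread: 19 members with 10 or more positions held 412 of the 578 (71.3%, against 66.01% over all genes), and the 3 richest, Slc24a2, Slc1a3 and Slc24a3, held 145. The median member had 3 positions, as did the median of all genes.

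**Figure D1:**
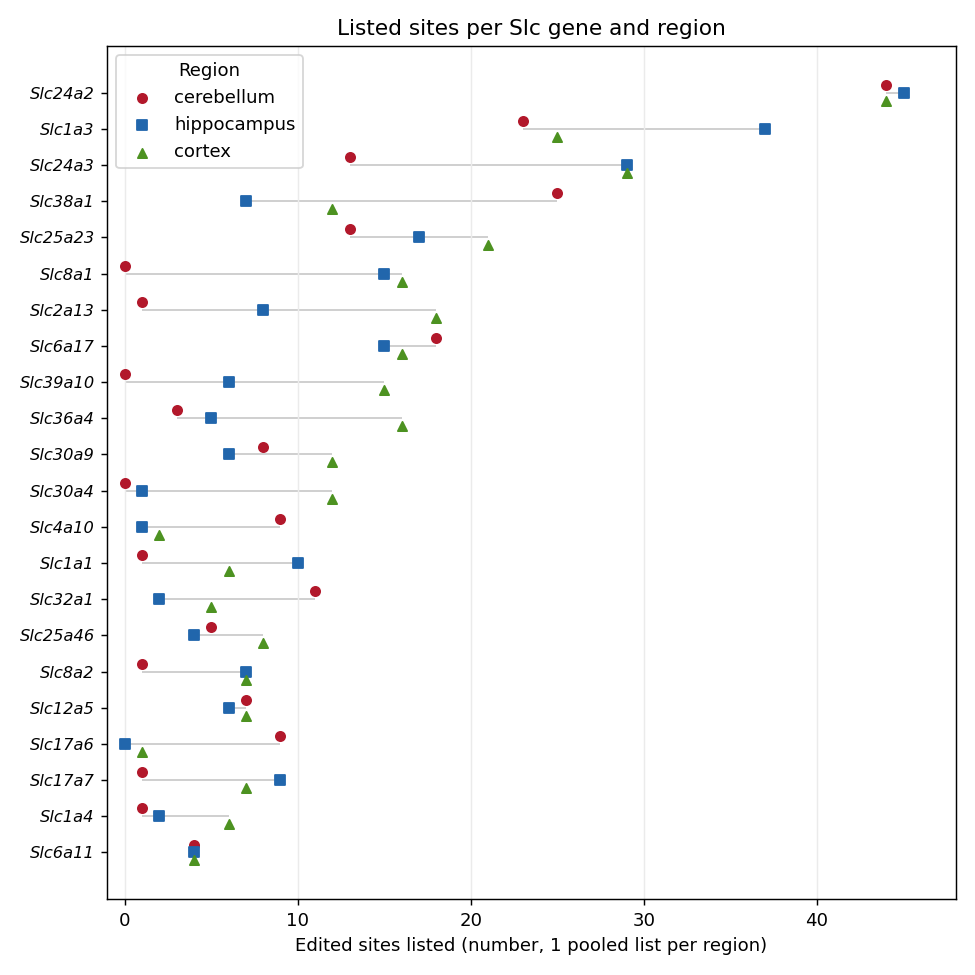
Number of listed sites (x axis) in cerebellum, hippocampus and cortex for 22 Slc genes with 8 or more listed positions, ordered by their total from top to bottom. Slc24a2 has 44, 45 and 44 sites, whereas Slc38a1, Slc4a10, Slc32a1 and Slc17a6 have their highest number in cerebellum and Slc8a1, Slc39a10 and Slc30a4 have none there.

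Between regions, a member was counted as different in site number when its numbers differed by 2-fold or more and it had at least 5 sites in 1 of the 2 regions. Of 24 members that could be compared between cerebellum and cortex, 5 had more sites in cerebellum (20.8%, against 12.3% of all comparable genes): Slc17a6, Slc32a1, Slc35e1, Slc38a1 and Slc4a10. A further 11 had fewer there (45.8%, against 48.2%), among them Slc17a7, Slc24a3, Slc8a1, Slc30a4 and Slc39a10. The same 5 had more sites in cerebellum than in hippocampus, of 22 compared (22.7%, against 22% of all genes), and 8 had fewer (36.4%, against 34.7%). Between hippocampus and cortex, 0 of 21 members had more sites in hippocampus (against 3.57% of all genes) and 8 had fewer (38.1%, against 29%). The exact 95% interval of each of these 6 shares contained the share of all genes. With 21 to 24 members compared, the intervals are wide, so they neither show nor exclude a difference of the carriers as a group. The regional differences below describe individual genes. The lists differ in length: with numbers taken per 10000 sites of each list, 1 member had more and 3 had fewer sites in hippocampus than in cortex. With levels of 10% or more alone, 0 members had more and 1 had fewer sites in cerebellum than in cortex. At that level members held 17 cerebellar sites over 13 genes, and the comparison still needed 5 sites in 1 region. Few members could be compared, so the 0 cannot decide whether strong sites differ in number between these regions.

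The vesicular transporters, which load transmitter into synaptic vesicles, differed in number between cerebellum and forebrain, in opposite directions. Slc17a6 encodes VGLUT2, the vesicular glutamate transporter of many subcortical and brainstem neurons and of the climbing fibres of the cerebellum. It lies on the plus strand of chromosome 7 (51621830 to 51671126, mm10) and had 9 sites in cerebellum, 0 in hippocampus and 1 in cortex. Its cerebellar levels were between 2.44% and 14.08% (median 5.43%), the highest at position 51669668. All 9 lie within 1638 nt of the annotated 3′ end of the gene. The only site listed outside cerebellum, at 51670983, had 5.06% in cerebellum and 6.67% in cortex.

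Slc17a7, which encodes VGLUT1, the main vesicular glutamate transporter of cortical and hippocampal pyramidal cells and of cerebellar granule cells, showed the opposite numbers. It lies on the same chromosome (45163921 to 45176139, plus strand) and had 1 site in cerebellum, 9 in hippocampus and 7 in cortex, all within 1094 nt of the 3′ end. Levels were low: the median was 1.59% in hippocampus and 2.07% in cortex. The site shared by all regions, at 45175720, had 1.66% in cerebellum, 5.10% in hippocampus and 4.53% in cortex. Cerebellum thus had both the fewest sites and the lowest level at the shared one.

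Slc32a1 encodes VGAT, which loads GABA and glycine into vesicles of inhibitory neurons (chromosome 2, 158607260 to 158615747, plus strand). It had 11 sites in cerebellum, 2 in hippocampus and 5 in cortex, and every site of the other regions was also listed in cerebellum. At the 5 sites shared with cortex the levels were alike, with means of 4.18% in cerebellum and 3.72% in cortex. The difference was therefore in the number of sites, 6 of which were listed in cerebellum alone. One of these, at 158615180, had 20.83%, the highest level of the gene; the site 59 nt before it was listed in all 3 regions at 2.27%, 2.35% and 2.92% in cerebellum, hippocampus and cortex.

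**Figure D2:**
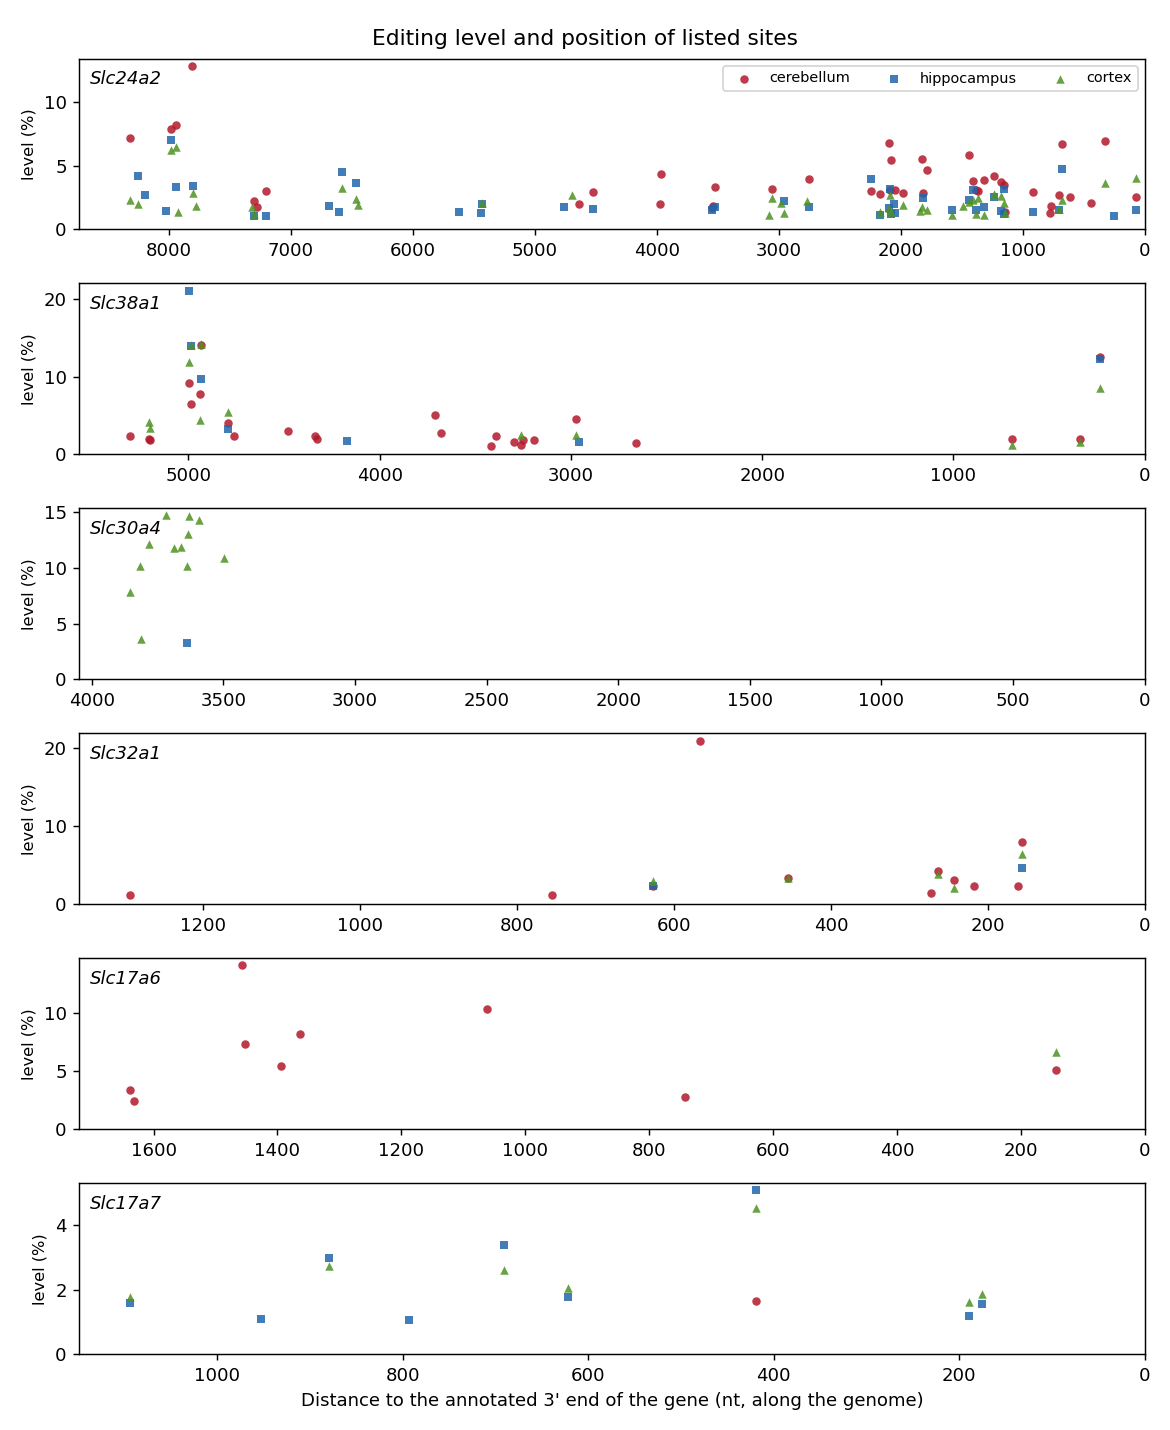
Editing level in percent (y axis) against the distance to the annotated 3′ end of the gene in nucleotides (x axis, the 3′ end at the right) for the listed sites of Slc24a2, Slc38a1, Slc30a4, Slc32a1, Slc17a6 and Slc17a7; Slc24a2 sites farther than 10 kb are outside its panel. Each point is a site in 1 region: the Slc17a6 sites are cerebellar but for 1 in cortex, the Slc17a7 sites are hippocampal and cortical but for 1 in cerebellum, and the Slc30a4 sites are cortical but for 1 in hippocampus.

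Families 1 and 6 hold the transporters that clear glutamate, GABA and glycine, together with related carriers of amino acids and creatine and the vesicular Slc6a17. Their 11 members held 118 positions, with 67 sites in cerebellum, 84 in hippocampus and 76 in cortex. Slc1a3 encodes GLAST (EAAT1), the glutamate transporter of astrocytes and of the Bergmann glia of the cerebellum (chromosome 15, 8634124 to 8710807, minus strand). It had 23 sites in cerebellum, 37 in hippocampus and 25 in cortex, and 17 of its 40 positions were in all 3 lists. All 40 lie within 2046 nt of the 3′ end. Mean levels at shared sites were nearly equal: over the 17 sites of cerebellum and cortex they were 3.38% and 3.09%. Of these sites 9 were higher and 8 lower in cerebellum, with log2 ratios from −0.68 to 1.68. The astrocyte markers had their most sites in cerebellum and not in hippocampus; their part in the Slc1a3 numbers was not tested.

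Of the positions of Slc1a3, 9 were listed in hippocampus alone, 2 in cerebellum alone and 1 in cortex alone. Its highest level, 10.15% in hippocampus and 8.66% in cortex at 8634334, was at a site not listed in cerebellum. Slc1a1, which encodes the neuronal glutamate and cysteine transporter EAAC1 (EAAT3), had 1 site in cerebellum, 10 in hippocampus and 6 in cortex. Its strongest positions lie close together; the strongest, at 28912006 on chromosome 19 and 1954 nt before the 3′ end, had 10.43% in hippocampus and 11.50% in cortex. At all 5 sites shared by hippocampus and cortex the level was lower in hippocampus, with means of 4.92% and 6.45%. Slc1a4, which encodes the neutral amino acid exchanger ASCT1, had 1, 2 and 6 sites in cerebellum, hippocampus and cortex.

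Slc6a11, which encodes the astrocytic GABA transporter GAT3, had 4 sites in each region but only 1 in common, so equal numbers did not mean equal positions.

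Slc6a17 encodes NTT4, a neutral amino acid transporter of synaptic vesicles (chromosome 3, 107467548 to 107518018, minus strand). It had 18 sites in cerebellum, 15 in hippocampus and 16 in cortex, of which 11 were in all 3 lists. Its sites differed in opposite directions. At 107468911 the level was 14.11% in cerebellum, 6.08% in hippocampus and 3.92% in cortex, the largest excess of cerebellum over cortex among member sites. At 107470928 it was 2.92%, 7.32% and 5.96% in the same order. Over the 13 sites shared by cerebellum and cortex, 8 were higher in cerebellum, 4 of them by 2-fold or more, and 5 were lower, 1 of them by 2-fold or more; the SD of the log2 ratio over sites was 0.96, against 0.60 for the 17 such sites of Slc1a3.

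Both glycine transporters were listed in cerebellum only. Slc6a9, which encodes GlyT1 of glia, had 3 sites within 47 nt of each other at 2.63%, 4.46% and 4.65%, and Slc6a5, which encodes GlyT2 of glycinergic neurons, had 2 at 2.35% and 4.65%. The other family 6 members had few sites: the creatine transporter gene Slc6a8 had 1 in each region, all at different positions; the neutral amino acid transporter gene Slc6a15 had 1 in cerebellum, 0 in hippocampus and 1 in cortex; and the proline transporter gene Slc6a20a had 1 in cortex at 4.76%. That site lies beyond the annotated 3′ end and is the only member site outside its gene's span. Among the 11 members listed in cerebellum alone, Slc6a9 and Slc20a1, a phosphate transporter gene, had 3 sites each. The choroid plexus markers Ttr and Kl were also listed in cerebellum alone, whereas Folr1, Clic6, Aqp1 and Otx2 were in no list. The part of choroid plexus RNA in these numbers was not tested.

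The sodium-calcium exchangers, which use the sodium gradient to extrude calcium, were the class with the most positions. The 4 genes of families 8 and 24 held 139 positions, 24.0% of all Slc positions, with 58 sites in cerebellum, 96 in hippocampus and 96 in cortex. Slc24a2 and Slc24a3 encode the potassium-dependent exchangers NCKX2 and NCKX3 of neurons, and Slc8a1 and Slc8a2 the potassium-independent exchangers NCX1 and NCX2. The numbers hid a contrast in level between both NCKX genes.

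Slc24a2 (chromosome 4, 86983124 to 87230652, minus strand) had 44 sites in cerebellum, 45 in hippocampus and 44 in cortex. These occupied 73 positions, of which only 17 were in all 3 lists and 10 were listed in each region alone. Its median level was 3.06% in cerebellum, 1.72% in hippocampus and 2.05% in cortex. At 24 of 25 sites shared by cerebellum and cortex the level was higher in cerebellum, with means of 4.44% and 2.41% and a median log2 ratio of 0.76 (SD 0.68 over sites). Against hippocampus, 24 of 26 shared sites were higher in cerebellum, with means of 3.96% and 2.26% and a median log2 ratio of 0.98 (SD 0.62). Hippocampus and cortex lay close together, with means of 2.77% and 2.49% over 26 shared sites. Its strongest site, at 86990939, had 12.82% and was listed in cerebellum alone.

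Slc24a3 (chromosome 2, 145167775 to 145642166, plus strand) showed the reverse. It had 13 sites in cerebellum, 29 in hippocampus and 29 in cortex, and every cerebellar site was listed in both other regions. At 12 of these 13 sites the level was lower in cerebellum than in cortex, with means of 5.61% and 9.69% and a median log2 ratio of −0.59 (SD 0.55). At 11 of 13 it was lower in cerebellum than in hippocampus (mean 10.3%), with a median log2 ratio of −0.87 (SD 0.85). A pair of sites 7 nt apart differed in their order over regions. At 145640617 the level was 7.25% in cerebellum, 20.59% in hippocampus and 20.83% in cortex, whereas at 145640624 it was 11.11%, 9.38% and 26.15%.

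Sites of 1 gene share its transcripts and are not independent, so the counts of higher and lower sites of Slc24a2 and Slc24a3 describe 2 genes. Slc8a1 (chromosome 17, 81373105 to 81738387, minus strand) had no site in cerebellum, 15 in hippocampus and 16 in cortex, only 7 of them shared. Slc8a2 had 1, 7 and 7 sites in cerebellum, hippocampus and cortex. At its 4 sites shared by hippocampus and cortex the level was higher in hippocampus at every one. Cerebellum was thus high for Slc24a2 in level, and low for Slc24a3, Slc8a1 and Slc8a2 in number.

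**Figure D3:**
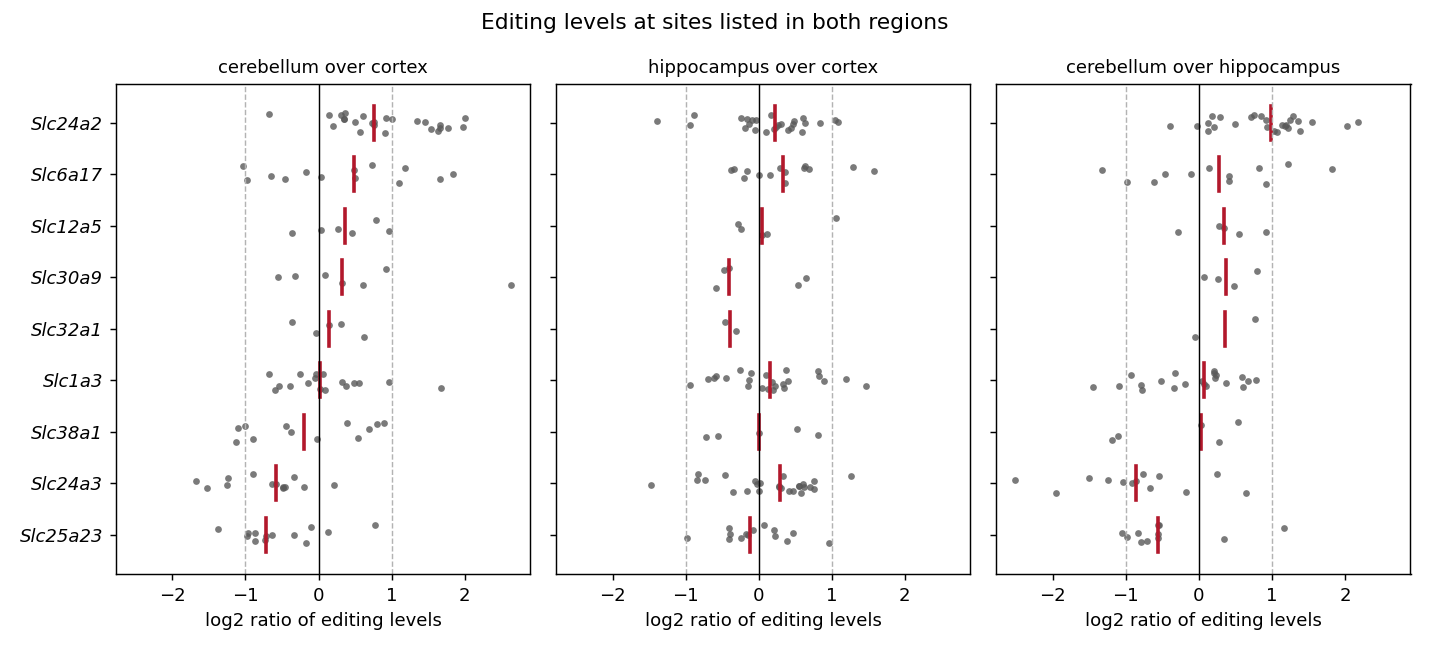
Log2 ratio of editing levels (x axis) at sites listed in both regions of a pair, for 9 Slc genes with at least 5 sites shared by cerebellum and cortex; each point is a site, the red bar is the median and dashed lines mark a 2-fold difference. All but 1 of the Slc24a2 sites lie to the right of 0 for cerebellum over cortex and all but 2 for cerebellum over hippocampus, the Slc24a3 and Slc25a23 sites lie mostly to the left, while hippocampus over cortex is spread around 0.

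Carriers that set chloride and pH differed by family. Slc12a5 encodes KCC2, the potassium-chloride cotransporter that keeps neuronal chloride low, and was listed evenly, with 7 sites in cerebellum, 6 in hippocampus and 7 in cortex and 5 in all 3. Its site at 164997861 on chromosome 2 had 4.27%, 5.18% and 2.48% in cerebellum, hippocampus and cortex, and all other levels of the gene were below 3%. Slc12a2, which encodes NKCC1, the sodium-potassium-chloride importer, had 1 site, in cerebellum at 5.77%. NKCC1 is abundant in choroid plexus, whose markers Ttr and Kl were listed in the same region, while Folr1, Clic6, Aqp1 and Otx2 were in no list. The part of choroid plexus RNA in this site was not tested.

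Slc4a10 encodes a sodium-driven bicarbonate transporter of neurons and choroid plexus (chromosome 2, 62046472 to 62326743, plus strand). It had 9 sites in cerebellum, 1 in hippocampus and 2 in cortex, and no position was common to any pair of regions. Its cerebellar levels were between 2.21% and 8.89% (median 3.85%), against 1.44% in hippocampus and 2.23% and 2.60% in cortex. The part of choroid plexus RNA in the cerebellar number was not tested. Slc4a4, which encodes the sodium bicarbonate cotransporter NBCe1 of astrocytes, had 3 sites in cerebellum, 1 in hippocampus and 3 in cortex, with the same 3 positions in cerebellum and cortex. Slc4a3 and Slc4a8 had 1 site each, in cortex.

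The zinc carriers were listed mainly in cortex, with 9 sites in cerebellum, 14 in hippocampus and 41 in cortex over 4 genes. Slc30a4 encodes ZnT4, which moves zinc out of the cytosol into vesicles (chromosome 2, 122681233 to 122702663, minus strand). It had 0 sites in cerebellum, 1 in hippocampus and 12 in cortex. The cortical levels were high for the carriers, between 3.64% and 14.75% with a median of 11.80%, and the sites lay within 356 nt, from 3498 to 3854 nt before the 3′ end. The hippocampal site, at 122684870, had 3.23% against 10.13% in cortex.

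Slc39a10, which encodes the zinc importer ZIP10, had 0, 6 and 15 sites in cerebellum, hippocampus and cortex, at lower levels (median 2.50% in hippocampus and 1.53% in cortex). Slc30a9, which encodes ZnT9, was listed in all regions with 8, 6 and 12 sites. At its 4 sites shared by cerebellum and hippocampus the level was higher in cerebellum at every one. Its site at 67354863 on chromosome 5, with 7.79% in cerebellum and 1.25% in cortex, had the largest log2 ratio of cerebellum to cortex among member sites, 2.64. Slc39a3, which encodes ZIP3, had 1, 1 and 2 sites.

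Among amino acid transporters, Slc38a1 stood out in cerebellum. It encodes SNAT1, a sodium-coupled glutamine transporter of neurons (chromosome 15, 96571418 to 96643438, minus strand), and had 25 sites in cerebellum, 7 in hippocampus and 12 in cortex. All 12 cortical sites were also cerebellar. The 27 positions fell into stretches. From 4700 to 6000 nt before the 3′ end there were 9 positions with 9 sites in cerebellum, 4 in hippocampus and 7 in cortex, and they included the strongest of the gene: 96576415 had 9.24%, 21.05% and 11.94% in that order. From 2500 to 4700 nt there were 15 positions with 13, 2 and 2 sites, and 11 of these were listed in cerebellum alone, at a median of 2.04% over the cerebellar sites. The excess of cerebellum over cortex was thus mostly in weak sites of the middle stretch. Over hippocampus the excess was also in the stretch from 4700 to 6000 nt, with 9 against 4 sites. At the 12 sites shared with cortex the level was higher at 5 and lower at 7 in cerebellum, 3 of these by 2-fold or more.

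Slc36a4 encodes PAT4, an amino acid transporter of the proton-coupled family, and had 3 sites in cerebellum, 5 in hippocampus and 16 in cortex. The stretch from 3774 to 4184 nt before the 3′ end held 12 of its 17 positions, all listed in cortex, with levels up to 12.28%. Slc7a5, which encodes LAT1, the large neutral amino acid transporter of the blood-brain barrier, had 4, 3 and 4 sites. A pair of its sites 4 nt apart on chromosome 8 had opposite orders. At 121882470 the level was 2.47% in cerebellum, 12.50% in hippocampus and 8.75% in cortex, and at 121882474 it was 10.59%, 4.08% and 4.65%. Neighbouring edited cytidines thus did not always rank the regions alike. The remaining amino acid carriers, Slc36a1, Slc38a2, Slc38a3, Slc38a10, Slc43a2 and Slc7a4, had 0 to 3 sites a region.

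Of the sugar carriers, Slc2a13, which encodes the proton-coupled myo-inositol transporter HMIT, had 1 site in cerebellum, 8 in hippocampus and 18 in cortex. The site of all 3 regions, at 91267906 on chromosome 15, had 4.35%, 14.29% and 10.96%, so the level there was also lowest in cerebellum. The glucose transporter genes were listed in every region at low levels. Slc2a1, which encodes GLUT1 of the blood-brain barrier and astrocytes, had 2, 3 and 3 sites, none above 2.92%. Slc2a3, which encodes the neuronal GLUT3, had 4, 3 and 2 sites, with 8.43% at its strongest in cerebellum. Slc45a4 had 1 site in each region, and Slc5a6, which encodes a vitamin transporter of the sodium-glucose family, had 1 in cerebellum.

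The mitochondrial carriers of family 25 form the largest family, with 12 members and 65 positions, and were listed evenly: 34 sites in cerebellum, 37 in hippocampus and 46 in cortex. Slc25a23, which encodes a calcium-regulated ATP-magnesium/phosphate carrier of the inner membrane, had 13, 17 and 21 sites. All 13 cerebellar sites were also cortical, and at 11 of them the level was lower in cerebellum, with means of 2.18% and 3.03% and a median log2 ratio of −0.71 (SD 0.57). Against hippocampus, 9 of 11 shared sites were lower in cerebellum, with means of 2.31% and 3.31%.

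Slc25a46, which encodes an outer membrane protein of mitochondrial dynamics, had 5, 4 and 8 sites in cerebellum, hippocampus and cortex. Slc25a4 and Slc25a5, which encode the ADP/ATP exchangers ANT1 and ANT2, had 3, 3 and 3 sites and 3, 4 and 4 sites; at all 3 sites of Slc25a5 shared by cerebellum and hippocampus the level was lower in cerebellum. Slc25a12, which encodes the aspartate/glutamate carrier aralar, had 3, 2 and 4. Slc25a3, which encodes the mitochondrial phosphate carrier, had the same 2 sites in every region. Slc25a11, Slc25a22, Slc25a28, Slc25a33, Slc25a36 and Slc25a51 had 0 to 2 sites a region.

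**Figure D4:**
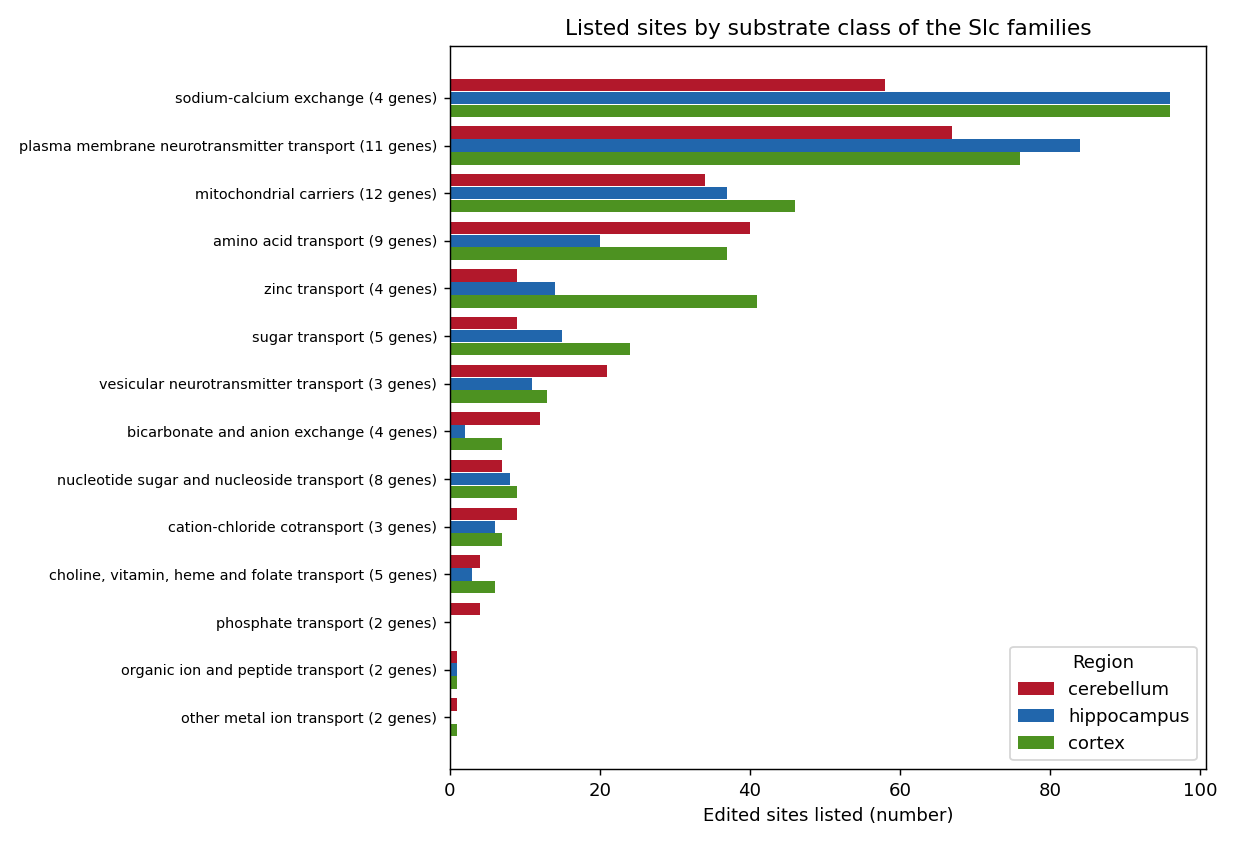
Number of listed sites (x axis) in cerebellum, hippocampus and cortex by substrate class of the Slc families, for the 14 classes shown, with the number of genes in brackets. Sodium-calcium exchange has 58, 96 and 96 sites and zinc transport 9, 14 and 41, whereas vesicular transport has 21, 11 and 13 and bicarbonate and anion exchange 12, 2 and 7.

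The nucleotide sugar carriers and their relatives of the Golgi and endoplasmic reticulum had 7 sites in cerebellum, 8 in hippocampus and 9 in cortex over 8 genes. Slc35b4, which encodes a Golgi UDP-sugar transporter, had 2 sites 3 nt apart on chromosome 6 that were listed in every region. At 34157013 the level was 16.67% in cerebellum, 10.17% in hippocampus and 6.76% in cortex, and the neighbour had the same order of cerebellum above hippocampus and cortex. Slc35e1, counted in this class by its family, had 5, 1 and 2 sites. Slc35a4 had 2 sites, both in hippocampus. Slc37a3 had 2 sites in hippocampus and 2 in cortex, and Slc35a5, Slc35b1, Slc35e2 and Slc35f1 had 1 site each. The site of Slc35e2 also lies in the span of a non-coding gene, Gm16023, the only overlap of that kind among the members.

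The carriers of phosphate, choline, vitamins, heme, organic ions and other metals had few sites. Slc20a1 and Slc20a2, which encode sodium-phosphate cotransporters, had 3 sites and 1 site, all in cerebellum. Slc49a4 had 3, 1 and 4 sites in cerebellum, hippocampus and cortex, and its site of all 3 regions was near 10% in each, with 10.94%, 11.93% and 9.78%. The choline transporter-like genes Slc44a1 and Slc44a2, the vitamin C transporter gene Slc23a2, the heme transporter gene Slc48a1, the iron transporter gene Slc11a2, Slc41a3, Slc22a17 and Slc22a23 had at most 1 site in any region.

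Editing levels of the members as a whole resembled those of all listed sites. The median was 3.095% in cerebellum (quartiles 2.08 and 5.02), 2.65% in hippocampus (1.64 and 4.59) and 2.73% in cortex (1.82 and 4.65); over all genes it was 3.36%, 2.82% and 2.91%. Levels of 10% or more were reached by 17 cerebellar, 22 hippocampal and 26 cortical member sites. That is 6.07% of member sites in cerebellum (against 8.99% of all sites), 7.21% in hippocampus (6.14%) and 6.86% in cortex (6.54%).

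Levels of 35% or more were reached at 3 member positions, 2 of them in each list. In cerebellum these were 2 of 280 member sites, against 169 of 11391 sites of the whole list. They were 2 of 305 against 131 of 13461 in hippocampus, and 2 of 379 against 237 of 17878 in cortex. Levels of the 3 member positions in APOBEC1-YTHmut mice are not in the lists, so these positions were not checked against background edits. Slc8a2 at 16140998 on chromosome 7 had 46.04% in cerebellum, 49.06% in hippocampus and 47.57% in cortex. It was the gene's only cerebellar site and lies 20065 nt before the 3′ end, 18212 nt from the nearest other listed site of the gene. Slc35e1 at 72484692 on chromosome 8 had 40%, 38.89% and 33.33%, 915 nt from its nearest neighbour. Slc8a1 at 81648273 on chromosome 17 had 53.33% in cortex and was not listed elsewhere; it lies 275168 nt before the 3′ end, 260107 nt from the next site. In Slc8a2 and Slc8a1 these sites had a higher level than, and lay far from, the clusters near the 3′ end.

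Sites were shared between regions about as often as over all genes. Of the 280 cerebellar member sites, 160 were also in the cortex list (57.1%, 95% interval 51.1 to 63.0, against 58.2% of all cerebellar sites). Of the 305 hippocampal sites, 209 were also cortical (68.5%, 63.0 to 73.7, against 69.7%). Of the 280 cerebellar sites, 138 were also hippocampal (49.3%, 43.3 to 55.3, against 49.9%). In all 3 lists were 121 positions, 20.9% of member positions against 19.02% of all, and the highest level of each had a median of 4.79%. Positions of 1 region numbered 103 in cerebellum (17.8%, against 15.5% of all positions), 79 in hippocampus (13.7%, against 12.8%) and 131 in cortex (22.7%, against 26.2%), with median levels of 2.67%, 1.64% and 2.50%.

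At shared sites the levels of most positions were within 2-fold. Between cerebellum and cortex, 24 of 160 member sites were at least 2-fold higher in cerebellum (15%, against 15.1% of all shared sites) and 15 at least 2-fold lower (9.38%, against 12%). Between hippocampus and cortex, 19 of 209 were higher in hippocampus (9.09%, against 7.37%) and 9 lower (4.31%, against 8.17%). The exact 95% interval of the share lower in hippocampus, 1.99 to 8.02, did not contain the share of all sites; sites of a gene are not independent, so this interval is too narrow. Between cerebellum and hippocampus, 20 of 138 were higher in cerebellum (14.5%, against 15.2%) and 15 lower (10.9%, against 11.4%). The median log2 ratio of member sites was 0.07 in each pair, against 0.06 over all shared sites for cerebellum over cortex, −0.02 for hippocampus over cortex and 0.04 for cerebellum over hippocampus. The intervals of all 3 member medians contained 0. With levels of 10% or more alone, the member medians were −0.05 for cerebellum over cortex and −0.03 for cerebellum over hippocampus. Slc24a2 alone gave 10 of the 24 sites higher in cerebellum than in cortex and 13 of the 20 higher in cerebellum than in hippocampus.

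In position, member sites resembled all sites. Their median distance to the annotated 3′ end, counted along the genome, was 1513 nt (1517 nt over all matched genes), and 90.6% lay within 5 kb of it (87.0%). Member sites came in clusters. The nearest other listed site on the same chromosome and strand, of any gene, was at a median of 32 nt. Such a site lay within 50 nt for 60.2% of member sites (59.3% of all sites). Positions listed in all 3 regions lay at a median of 1381 nt, and those of cerebellum, hippocampus or cortex alone at 1452, 1290 and 1953 nt. Exons, introns and untranslated regions were not analysed here, so a distance is not a place in a transcript.

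The sodium gradient that drives many of these carriers is made by the sodium-potassium ATPase. Of its 12 subunit and regulator genes, 8 had a site, with 29 sites in cerebellum, 23 in hippocampus and 24 in cortex. The share of all mouse genes with a site was not computed, so 8 of 12 is not called few or many. Atp1b1, which encodes the beta-1 subunit, had 13, 4 and 5 sites. Of 3 comparable genes of this list, Atp1b1 alone had at least 2-fold more sites in cerebellum than in cortex. Over all comparable genes that share was 12.3%. Atp1b3, which encodes the beta-3 subunit, had 6, 7 and 9 sites. Fxyd7, which encodes a regulatory subunit of the pump, had 2 sites in each region with medians of 8.51% in cerebellum, 2.175% in hippocampus and 1.57% in cortex.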

How the data were processed

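Bulk poly(A) RNA-seq libraries were made with a directional kit from 900 ng of total RNA each, per the labels' protocols. The submitters' processing notes name STAR 2.7.5 and the build mm10. APOBEC1-YTHmut libraries served as the background in site calling, per the labels. The caller, its thresholds and the pooling of libraries were not given in the sources. The authors deposited 1 list per region with a fraction per site, printed here as percent. Depth is unknown.

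The members and gene lists were chosen with earlier results of these data known. Computed here were site numbers, identical positions (chromosome, position, strand), ratios of levels at shared sites, exact Clopper-Pearson 95% intervals and distances to gene ends, with the RefSeq table of GRCm38.p6, which matched 75 of 75 members by symbol. In the RefSeq start-site windows of all genes, 29 of 29 listed positions were a C preceded by A. Member sites among them numbered 0, so this does not describe the bases around the member sites. No test was made, because each region has 1 pooled value per site. Fully described are members with 8 or more sites in a region, the highest levels, the largest differences and families 1, 6, 12, 17 and 32; other members are named with their values to account for them. Some members enter the counts but are not reported here by name. The limit of 35% and the stretches within genes were chosen after their values were seen. Counting was checked on simulated data. Scripts used scipy 1.17.1, pandas 2.3.3, numpy 2.4.6 and matplotlib 3.10.9 under Python 3.11.15.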

Additional observations from a re-analysis of the deposited data

How the results depend on the processing

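Of 126 alternative values, 82 stayed within their spread or within 1.5-fold of the count, and 44 moved. The median log2 ratios of both cerebellar pairs, whose intervals contain 0, have no firm sign. Cerebellum over cortex was −0.05 both at levels of 10% or more and with 1 value a gene. It was −0.00097 with levels scaled to a common median. Cerebellum over hippocampus was −0.03 at levels of 10% or more. Hippocampus over cortex stayed positive, from 0.056 at levels of 10% or more to 0.125 with 1 value a gene. Its interval left out 0 only with scaled levels (0.0048 to 0.244), and sites of a gene are not independent. Scaling also left 13.8% of shared sites higher and 14.5% lower in cerebellum than in hippocampus, the opposite order to the unscaled shares. Merging sites within 10 nt, sharing within 10 nt and leaving out sites of 35% or more moved none. With only levels of 10% or more, the members listed were 13 in cerebellum, 14 in hippocampus and 11 in cortex. The numbers with 2-fold more and fewer sites were then 0 and 1 for cerebellum against cortex, 0 and 1 for cerebellum against hippocampus, and 1 fewer for hippocampus against cortex. Few members could reach the 5 sites that this comparison needs at that limit, so these counts cannot decide how strong sites differ. Under that limit 41.2% of cerebellar and 45.5% of hippocampal sites were also cortical, medians were 12.82%, 12.4% and 12.635% in cerebellum, hippocampus and cortex, and the share of shared sites with a 2-fold difference was 0 except for those lower in cerebellum than in cortex. Members then held 1.66% of cerebellar and 2.66% of hippocampal sites. Needing 2 sites left 34, 33 and 37 members. Per 10000 sites of each list, 1 member had more and 3 had fewer sites in hippocampus than in cortex. Sharing within 50 nt gave 66.1% (cerebellum in cortex), 83.3% (hippocampus in cortex) and 59.3% (cerebellum in hippocampus). With 1 value a gene, medians were 3.57%, 3.11% and 3.095%, and 5.56% were higher in hippocampus than in cortex and 7.41% in cerebellum than in hippocampus. At a ratio of 1.5, 30% and 22.5% of shared sites were higher and lower in cerebellum than in cortex, 23.4% and 14.4% in hippocampus than in cortex, and 28.3% and 23.9% in cerebellum than in hippocampus. With Slc1a2, members held 3.002%, 2.69% and 2.42% of sites in cerebellum, hippocampus and cortex; with related transporters of other symbols they held 2.69% in hippocampus and 2.46% in cortex. By construction, these settings change which sites, genes or ratios are counted.

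No paired analysis was possible because the lists hold no value per library, and for the same reason no animal was left out. Depth is unknown, so the absence of a site from a list sets no limit on its level.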

Other observations

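Of 44 genes for transporters of the same superfamily that carry other symbols, 13 had a site, and some of these reached levels of 35% or more. The share of all mouse genes with a site was not computed, so 13 of 44 is not called few or many. Sv2b, which encodes a synaptic vesicle glycoprotein of the transporter fold, had 11 sites in cerebellum, 38 in hippocampus and 31 in cortex, with its strongest at 9.35%, 25.09% and 17.11%. Sv2c had 5 sites, all in cerebellum, and 1 of them stood at 50%. Xpr1, which encodes a phosphate exporter, had 2, 10 and 17 sites. Slco1a4, an organic anion transporter gene of brain endothelium, had 2, 1 and 3 sites reaching 56.82%, 27.5% and 50%. Mtch2, which encodes a mitochondrial outer membrane protein related to family 25, had 1 site with 48.19% in cerebellum, 40.74% in hippocampus and 43.75% in cortex.

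For accessory proteins that carry solute carriers to the membrane, 3 genes were chosen with earlier results of these data known, and all 3 had a site. Nptn, which encodes neuroplastin, had 9, 10 and 5 sites in cerebellum, hippocampus and cortex, Emb had 3, 0 and 1, and Bsg, which encodes basigin, had 1 in each. The ATP-binding cassette transporters, an unrelated class of pumps, had a site in 7 of 34 genes, with 4 sites in cerebellum, 2 in hippocampus and 7 in cortex. Without the share of all mouse genes with a site, 7 of 34 is not called few or many.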
